A study of Mus musculus with 8 samples.

Results

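The transcripts described here are those of 10 genes of early macrophages and other leukocytes, *Csf1r*, *Ptprc*, *Spi1*, *Fcer1g*, *Tyrobp*, *Laptm5*, *Coro1a*, *Cx3cr1*, *Adgre1* and *Mrc1*, chosen by symbol from a table of 53465 genes. All 10 were in the table. The RNA came from heart ventricles of mouse embryos at embryonic day 9.5 (E9.5), with 4 wild-type (WT) samples and 4 samples of the genotype Nrg-1flox;Tie2-Cre, called mutant below. *Nrg1* encodes neuregulin-1, a growth factor that the endocardium sends to the myocardium. *Tie2-Cre* recombines floxed alleles in endothelial cells, the endocardium included, and is known to act also in much of the blood lineage, so leukocytes of the mutant can carry the deletion themselves. The labels give neither the zygosity of the floxed allele nor the number of hearts behind a sample. The p-values below therefore measure the spread between these samples, and nothing in the labels says which samples share a litter. The question of the comparison was whether transcripts of primitive myeloid cells differed between the genotypes together with those of red blood cells.

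At this stage the macrophages of a mouse embryo come from the yolk sac, whose blood islands also release primitive red cells and megakaryocytes. The transcription factor PU.1, encoded by *Spi1*, directs precursors to the myeloid fate and activates *Csf1r*, the receptor for the growth factors CSF1 and IL-34 on which macrophages depend. Precursors then gain *Cx3cr1*, the fractalkine receptor, and as tissue macrophages *Adgre1* (F4/80) and *Mrc1* (the mannose receptor, CD206). *Fcer1g* and *Tyrobp* encode small membrane adaptors that pass signals of Fc and related receptors through immunoreceptor tyrosine-based activation motifs (ITAMs). *Ptprc* (CD45), *Laptm5* and *Coro1a* are used by leukocytes in general.

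Total counts ranged from 11852372 to 14360323 in WT and from 12430368 to 14223860 in the mutant. *Nrg1* was lower in the mutant, with counts of 61, 59, 71 and 72 against 156, 131, 121 and 173 in WT (log2 fold change −1.07, SE 0.14, adjusted p = 0.00286, quasi-likelihood test of edgeR, Benjamini-Hochberg adjustment as for all adjusted p below), and the groups did not overlap. The share of counts from hemoglobin genes was 6.26%, 1.93%, 3.801% and 3.89% in mutants 1 to 4 and from 0.671% to 0.799% in WT. Red-cell transcripts thus differed between the genotypes in these ventricles, and mutant 1 held the largest share of them. In RNA from whole tissue, more cells of a type and more RNA per cell cannot be told apart.

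The 10 leukocyte genes were expressed at low levels, and 2 of them, *Csf1r* and *Coro1a*, rose in the mutant. Their summed level, in CPM (counts scaled to library size after TMM normalization), was 49.7, 21.8, 25.7 and 23.9 in mutants 1 to 4 and 13.7, 16.2, 14.9 and 12.4 in WT, so every mutant sample lay above every WT sample. The mean was 30.3 ± 13.04 (SD, n = 4) in the mutant and 14.3 ± 1.63 (SD, n = 4) in WT, a ratio of 2.12. *Spi1* and *Laptm5* lay above WT in every mutant sample without passing the adjusted threshold, and *Mrc1* overlapped between the genotypes. This direction holds on the scale of the whole library. Scaled to red-cell transcripts, which had a higher median fold change, the tested members had negative fold changes, as described further below.

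Of the 10 genes, 5 passed the filter on low counts (10 counts or more, adjusted for depth, in at least 4 samples), and 14451 genes were tested in all. Of those tested genes, 8.86% had an adjusted p under 0.05 in either direction and 5.18% were higher in the mutant. Among the members, 2 of the 5 tested were called, both higher. *Spi1* reached the filter through its mutant samples, since its counts were 10 or more in only 2 WT samples, so a count over the tested members alone is no support for a direction. In a fit of all 28458 genes with at least 1 count, which holds all 10 members, 2 of 10 were called higher, against 2.34% of all genes. The median log2 fold change of the 10 members in that fit was 1.16, with *Adgre1* set at its lower bound, and that of all genes was 0.02. Over all 10 members, all mutant samples lay above all WT samples for 5 and the genotypes overlapped for the other 5. No share over all 28458 genes was taken for this count, and *Adgre1* is among the first 5 on 8 counts in all, so nothing is read from it. Of the 5 tested members 4 did not overlap, *Spi1* among them, beside 9.52% of all genes tested, and for the reason given for *Spi1* nothing is read from that count.

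**Figure D1:**
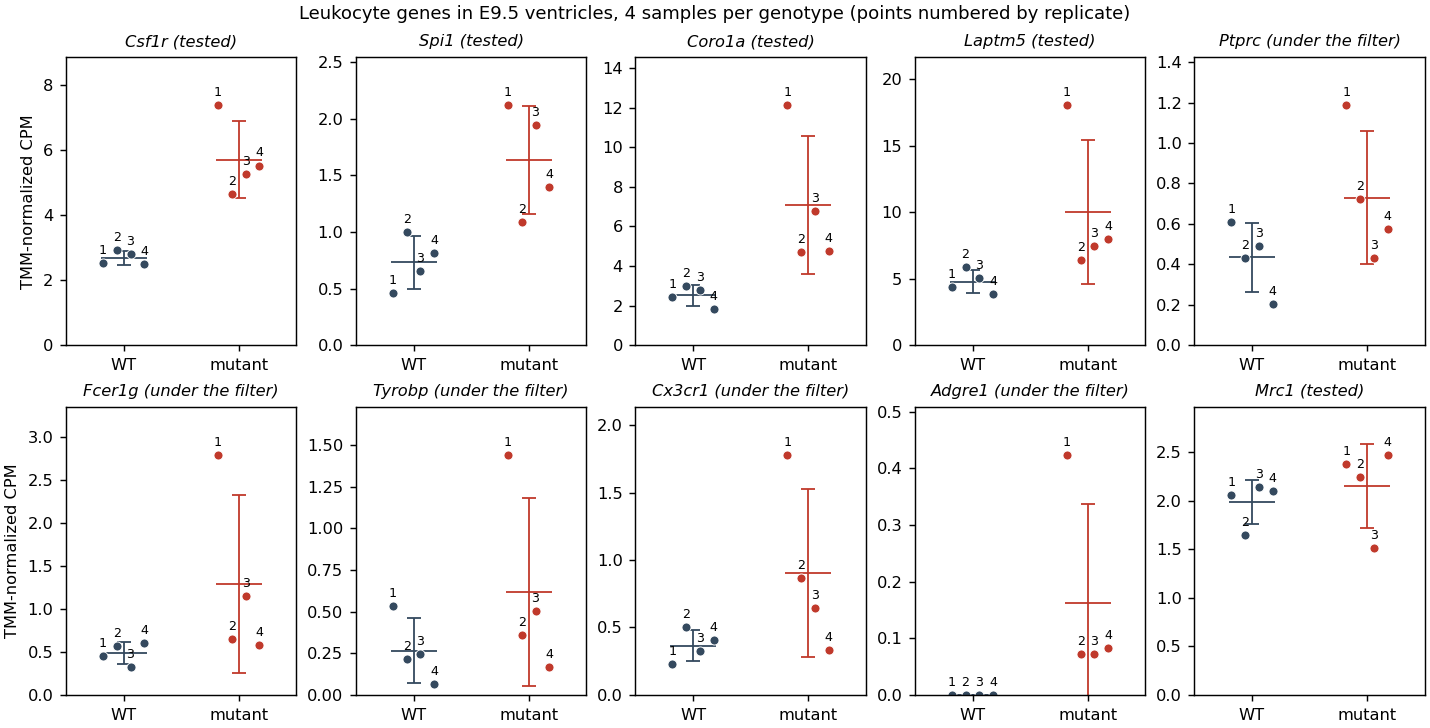
CPM of each of the 10 leukocyte genes (vertical axes, each from 0) in the 4 WT and 4 mutant samples, with points numbered by replicate, horizontal bars at the mean and error bars of 1 SD (cut at 0 for *Adgre1*). On this scale all mutant points lie above all WT points for *Csf1r*, *Spi1*, *Coro1a*, *Laptm5* and *Adgre1*, mutant 1 is the highest mutant point for every gene but *Mrc1*, and the fold changes of the tested genes are negative when libraries are scaled to the erythroid list.

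*Csf1r* gave the firmest difference among the members. It lies on the plus strand of chromosome 18 of GRCm38, from 61100598 to 61132149, with 24 merged exons. Its level was 7.38, 4.63, 5.25 and 5.52 CPM in mutants 1 to 4 and 2.52, 2.94, 2.79 and 2.50 CPM in WT, from counts of 64 to 87 and 33 to 41. The lowest mutant sample was above the highest WT sample. *Csf1r* rose 2.11-fold (log2 fold change 1.08, SE 0.18, adjusted p = 0.00594). It was called in all 16 alternatives run, with log2 fold changes from 0.93 to 1.17 and adjusted p from 9.38e-05 to 0.0335. *Csf1r* shares 873 exon bases with *Hmgxb3* on the other strand, and the library kit named in the labels does not mark strand, so reads of the shared bases cannot be assigned by strand. *Hmgxb3* itself overlapped between the genotypes, at 48.6 to 56.4 CPM in the mutant and 49.4 to 53.1 CPM in WT (log2 fold change 0.03, adjusted p = 0.834).

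*Spi1*, on chromosome 2 (plus strand, 91082390 to 91115756), had 25, 15, 27 and 17 counts in mutants 1 to 4 and 6, 14, 8 and 12 in WT. In CPM these were 2.12, 1.09, 1.94 and 1.40 against 0.458, 1.003, 0.657 and 0.811. The groups did not overlap, but mutant 2 and WT 2 were separated by a single count before scaling. The log2 fold change was 1.14 (SE 0.32) with an adjusted p of 0.0546, just outside the threshold, and an unadjusted p of 0.00512. *Spi1* was called in 1 of the 15 alternatives that tested it, without mutant 2 (log2 fold change 1.303, adjusted p = 0.0353), and its adjusted p reached 0.153 in the others.

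Among the genes used by leukocytes in general, *Coro1a* rose and *Laptm5* and *Ptprc* did not pass the threshold. *Coro1a* encodes coronin 1A, which binds actin in leukocytes, and lies on chromosome 7 (minus strand, 126699773 to 126707787). Its level was 12.1, 4.71, 6.76 and 4.78 CPM in mutants 1 to 4 and 2.44, 3.01, 2.79 and 1.83 CPM in WT. No mutant sample reached down to WT, and mutant 1 was 2.54 times the median of the other mutants. The log2 fold change of *Coro1a* was 1.49 (SE 0.32, adjusted p = 0.0208), and without mutant 1 it was 1.11 (adjusted p = 0.00400). The call was lost when WT 1 (adjusted p = 0.0714), WT 3 (0.0583) or WT 4 (0.0718) was left out, and held in the other 13 of 16 alternatives. *Coro1a* shares 26 exon bases with *Bola2* on the other strand, which overlapped between the genotypes (log2 fold change 0.17, adjusted p = 0.241).

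*Laptm5*, which encodes a lysosomal membrane protein of blood cells and lies on chromosome 4 (plus strand, 130913125 to 130936141), had the highest level of the 10 genes in mutant 1. It was measured at 18.1, 6.44, 7.48 and 7.995 CPM in mutants 1 to 4 and at 4.35, 5.87, 5.10 and 3.85 CPM in WT. Mutants 2 to 4 lay close above the WT samples and mutant 1 far above them. The log2 fold change was 1.05 (SE 0.32, adjusted p = 0.0783). Without mutant 1 it was smaller, 0.61, but the spread was smaller too and the adjusted p was 0.0245. *Laptm5* was also called without mutant 2 (1.22, adjusted p = 0.0430) and by DESeq2 (1.06, adjusted p = 0.0146), and in none of the other 13 alternatives. *Ptprc*, the phosphatase that marks nearly all white blood cells, was under the filter, with counts of 14, 10, 6 and 7 in mutants 1 to 4 and 8, 6, 6 and 3 in WT. These overlapped (log2 fold change 0.74, SE 0.49, adjusted p = 0.527 in the fit without a filter).

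Both ITAM adaptors were under the filter and overlapped between the genotypes. *Fcer1g*, the Fc receptor gamma chain, on chromosome 1 (minus strand, 171229572 to 171234365), had counts of 33, 9, 16 and 7 in mutants 1 to 4 and 6, 8, 4 and 9 in WT. In CPM, mutants 1, 2 and 3 (2.80, 0.652 and 1.15) were above the highest WT sample (0.608), mutant 2 by little, and mutant 4 (0.577) was within the WT range. Its log2 fold change in the fit without a filter was 1.35 (SE 0.47, unadjusted p = 0.00904, adjusted p = 0.133). *Tyrobp*, which encodes DAP12, on chromosome 7 (plus strand, 30413760 to 30417585), had counts of 17, 5, 7 and 2 against 7, 3, 3 and 1. Only mutant 1 exceeded the highest WT count (log2 fold change 1.19, SE 0.65, adjusted p = 0.436).

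The genes that mark later steps of macrophage maturation gave no call, and *Cx3cr1* and *Adgre1* had low counts. *Cx3cr1*, on chromosome 9 (minus strand, 119901616 to 120069879), had counts of 21, 12, 9 and 4 in mutants 1 to 4 and 3, 7, 4 and 6 in WT, with only mutant 4 inside the WT range (log2 fold change 1.26, SE 0.51, adjusted p = 0.206 in the fit without a filter). *Adgre1*, on chromosome 17 (plus strand, 57358691 to 57483527), had 5, 1, 1 and 1 counts in the mutant and 0 in each WT sample. Set against a floor of 3 counts over the 4 WT samples, *Adgre1* was at least 2.79-fold higher in the mutant, a bound that rests on 8 reads of which 5 came from mutant 1 (adjusted p = 0.145 in the fit without a filter). *Mrc1*, on chromosome 2 (plus strand, 14229392 to 14332057), was at 2.37, 2.24, 1.51 and 2.47 CPM in mutants 1 to 4 and 2.06, 1.65, 2.14 and 2.10 CPM in WT. Its values were interleaved, with mutant 3 the lowest of all 8 samples (log2 fold change 0.11, SE 0.22, adjusted p = 0.801). In the 16 alternatives its log2 fold change ran from 0.03 to 0.25 without a call. *Mrc1* is known to be expressed also by some endothelial cells, and which cells carried it here was not tested.

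*Coro1a* had the largest fold change among the tested members and *Mrc1* the smallest, and, chosen for this, the bases upstream of the start of these genes are shown side by side. They come from RefSeq on GRCm38.p6, in windows from 250 bases before to 50 bases after a start, and only bases outside every annotated exon are printed. The motif in capitals is GAGGAA, the purine-rich core that PU.1 is known to bind, read on both strands (TTCCTC on the other).
Mrc1: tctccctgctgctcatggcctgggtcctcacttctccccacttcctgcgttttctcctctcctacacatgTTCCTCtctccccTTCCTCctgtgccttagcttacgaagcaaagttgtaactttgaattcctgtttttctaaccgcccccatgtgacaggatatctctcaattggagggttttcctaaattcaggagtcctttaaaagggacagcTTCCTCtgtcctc
Coro1a: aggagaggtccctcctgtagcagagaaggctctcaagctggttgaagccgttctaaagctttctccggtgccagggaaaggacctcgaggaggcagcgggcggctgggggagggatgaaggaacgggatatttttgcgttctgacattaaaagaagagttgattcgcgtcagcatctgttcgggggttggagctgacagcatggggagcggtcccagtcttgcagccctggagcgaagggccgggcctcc
The *Mrc1* bases are chr2:14229164-14229391 on the plus strand and hold the motif 3 times, at 180, 167 and 35 bases before the start. The *Coro1a* bases are chr7:126704817-126705066 on the minus strand, upstream of 1 of 2 RefSeq starts, and hold it 0 times, as does the window of the other start. The gene model of *Coro1a* extends beyond them, so they fall between exons of longer transcripts.

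Windows were found for 6 of the 10 members, 8 windows in all, and 3 of the 8 (in *Mrc1*, *Ptprc* and *Laptm5*) held the motif. Of all 32851 mouse windows 28.3% held it, and of the 13586 windows of tested genes 26.01%. A match is a description of the letters in the window, and its absence says only that these letters were not there.

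Per kilobase of merged exons, which allows levels of different genes to be compared, *Laptm5* (2.64 CPM per kilobase) and *Coro1a* (2.55) were the highest members in the mutant, followed by *Fcer1g* (1.48), *Csf1r* (0.986), *Tyrobp* (0.926) and *Spi1* (0.608). In WT the order was *Laptm5* (1.27), *Coro1a* (0.905), *Fcer1g* (0.563), *Csf1r* (0.466), *Tyrobp* (0.399), *Mrc1* (0.312) and *Spi1* (0.272). *Mrc1* was at 0.338 in the mutant, and *Cx3cr1* (0.201 in the mutant, 0.0813 in WT), *Adgre1* (0.0502 and 0) and *Ptprc* (0.0399 and 0.0237) were the lowest in both genotypes. In the mutant the SDs of *Laptm5*, *Coro1a* and *Fcer1g* were 1.43, 1.25 and 1.18 CPM per kilobase, so the order of these neighbours lies within the spread between samples. In WT they were 0.233, 0.186 and 0.145.

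Mutant 1 contributed unequally to the members. Its level relative to the median of the other mutants was 5.86 for *Adgre1*, 4.29 for *Fcer1g*, 3.98 for *Tyrobp*, 2.75 for *Cx3cr1*, 2.54 for *Coro1a*, 2.41 for *Laptm5* and 2.06 for *Ptprc*. For *Spi1* (1.51), *Csf1r* (1.40) and *Mrc1* (1.06) the ratio was smaller. The same ratio had a median of 1.48 over the 19 genes of an erythroid list and of 2.31 over the 14 genes of a megakaryocyte and platelet list, and of 0.979 and 0.793 over the endothelial and cardiomyocyte lists. It was 0.778 over the 3 tested ITAM partners, 1.07 over the 9 tested macrophage surface and effector genes and 0.629 for the 1 tested lymphoid gene. Over the other leukocyte lists, members included, it was 1.51 (transcription factors), 1.40 (CSF1 axis and cytokine receptors), 1.47 (signalling and cytoskeleton) and 1.55 (granulocyte and mast cell). Mutant 1 was thus high in most members, in the platelet and red-cell lists and in some lists of leukocyte genes, but not in all of those. The part of this sample in the leukocyte difference could be measured by leaving it out, and then 3 of the 5 tested members were called higher (*Csf1r*, *Coro1a* and *Laptm5*) and their median log2 fold change was 0.93 in place of 1.08. In that fit 9.8% of all 14630 genes were called higher, more than in the fit of all samples, so the added call came with more calls over the whole table.

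Most red-cell genes measured rose. Of 19 erythroid genes measured, all were tested and 18 rose, with log2 fold changes of the 19 genes from 1.49 to 2.77 and a median of 2.28. *Klf1* and *Gata1*, transcription factors of red-cell precursors, rose by 2.28 and 2.26 on the log2 scale, *Epor*, the erythropoietin receptor, by 2.26 and *Epb42*, a protein of the red-cell membrane, by 2.35. Their adjusted p ranged from 0.00179 to 0.00299. The embryonic globins *Hbb-y* and *Hba-x* rose by 2.45 and 2.69, and only *Hbb-bt* did not pass (log2 fold change 2.20, adjusted p = 0.107). The median over all genes tested was −0.0014. The members' own median is given above over all 10 genes, since that of the tested members (1.08) includes *Spi1*, which passed the filter through its mutant samples.

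**Figure D2:**
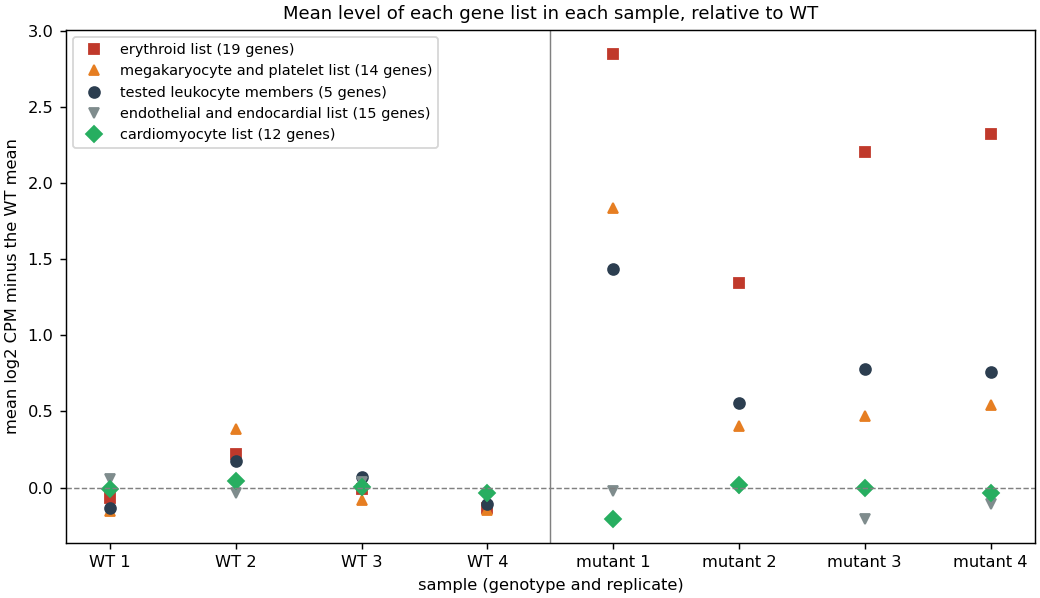
Mean log2 CPM of the tested genes of each list (vertical axis, minus the WT mean) in each of the 8 samples (horizontal axis), with 1 marker type per list. The 5 tested leukocyte genes lie between 0.55 and 1.44 in the mutants, below the erythroid list (1.34 to 2.85) in every mutant sample. In WT they lie from −0.13 to 0.17, and *Spi1*, 1 of the 5, passed the filter through its mutant samples. The endothelial and cardiomyocyte lists lie between −0.21 and 0.05.

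Sample by sample, the mean of the tested members relative to WT was 1.44, 0.55, 0.78 and 0.76 on the log2 scale in mutants 1 to 4, and that of the erythroid list was 2.85, 1.34, 2.20 and 2.32. Both were highest in mutant 1 and lowest in mutant 2. The members' means include *Spi1*, which passed the filter through its mutant samples, so the gap between the genotypes is not read from them. In WT the members ranged from −0.13 to 0.17 and the erythroid list from −0.14 to 0.22, with WT 2 the highest for both. To compare the members with the red-cell genes directly, all 14451 genes were fitted again with each library scaled to the geometric mean of its erythroid genes, a comparison added after the results were seen. On this scale 98.1% of all genes tested were lower in the mutant, and the median log2 fold change of all genes was −2.09.

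Relative to the erythroid list, 4 of the 5 tested members were called lower in the mutant, a share to be read against that 98.1%. *Csf1r* had a log2 fold change of −1.09 (SE 0.43, adjusted p = 0.0122), *Spi1* of −1.05 (SE 0.51, adjusted p = 0.0427), *Laptm5* of −1.21 (SE 0.41, adjusted p = 0.00307) and *Mrc1* of −2.01 (SE 0.47, adjusted p = 2.27e-05). *Coro1a* was not called (−0.75, SE 0.43, adjusted p = 0.0823). By value *Mrc1* lay near the median of all genes, and of the 5 tested members *Csf1r* alone passed the test on both scales. By value on the scale of the whole library, *Csf1r* (1.08) rose by less than any gene of the erythroid list (1.49 or more). Since 98.1% of all genes were called lower on the erythroid scale, its call there is not particular to it. For *Coro1a* the difference from the list did not pass.

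**Figure D3:**
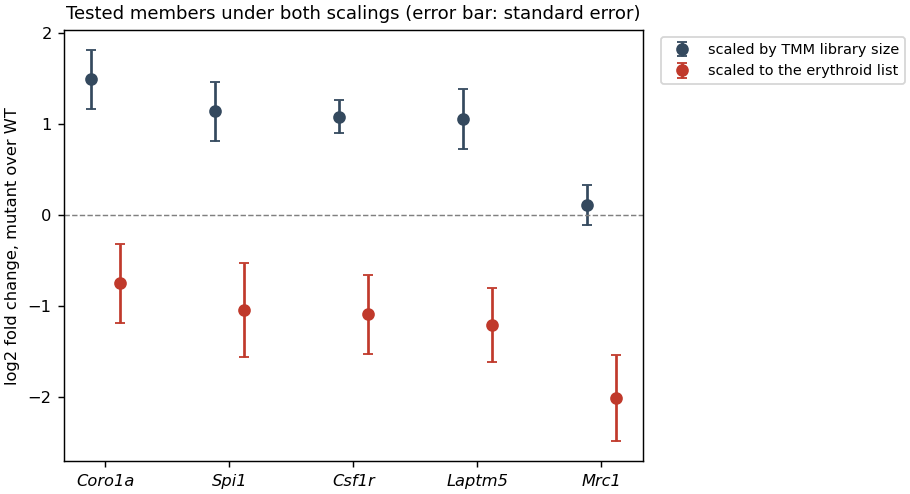
Log2 fold change of mutant over WT (vertical axis, error bars of 1 standard error) for the 5 tested members (horizontal axis), scaled by library size or to the erythroid list. *Csf1r* changes from 1.08 to −1.09 and *Mrc1* from 0.11 to −2.01 between the scales, against medians over all genes of −0.0014 and −2.09.

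To see how far the members stand for other myeloid genes, 5 lists of related genes were read from the same fit, leaving the members out. Of 69 genes listed, 43 were tested, 9 were called higher and 1 lower, with a median log2 fold change of 0.35, where 5.18% of all genes tested were higher and 3.67% lower. Without mutant 1 there were 12 higher and 4 lower with a median of 0.25, where 9.8% of all genes were higher and 8.37% lower. *Cebpa* and *Rac2*, both called higher, had low WT counts and, like *Spi1*, were not tested where 10 counts were required in every sample. In that fit 36 genes of the lists were tested, with 8 higher, 2 lower and a median of 0.22, beside 748 higher and 551 lower of all 13174 genes. The wider lists thus held genes that rose by more than *Csf1r*, while 33 of the 43 were not called. Of the 43, 34 had a fold change above 0 and 20 an unadjusted p under 0.05 by edgeR. *Ncf4*, *Csf2rb2*, *Csf2rb* and *Rac2*, all called higher, lie close together on chromosome 15 (78244801 to 78572783). Whether they changed as 1 locus was not tested.

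Among 10 tested transcription factors of myeloid cells other than *Spi1*, 3 rose and 0 fell in edgeR's test (3 higher and 1 lower by DESeq2, by limma-voom and with upper-quartile normalization, 4 higher and 1 lower without mutant 1, 2 higher and 1 lower with no filter or with 10 counts in every sample, and 2 higher and 0 lower with the replicate block and in 6 of the 8 fits without 1 sample), with a median of 0.82 and 9 of the 10 fold changes above 0. *Ikzf1* rose by 2.19 (SE 0.31, adjusted p = 0.00509) and *Lyl1* by 1.18 (SE 0.17, adjusted p = 0.00387), and both are known to be expressed in red-cell precursors as well. *Cebpa*, which acts with PU.1 in myeloid precursors, rose by 1.08 (SE 0.29, adjusted p = 0.0463) at 1.22 against 0.567 CPM, and lost its call in 10 of 15 alternatives. *Zeb2*, the most abundant of the list, did not pass (0.06, SE 0.12), and its sign turned without mutant 1. *Runx1*, a factor of early blood cells named after its values were seen, did not pass (1.53, SE 0.43, adjusted p = 0.0579) and was called in 3 of 16 alternatives, among them the fit without mutant 1 (1.10, adjusted p = 0.0419).

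Of the CSF1 axis and the myeloid cytokine receptors, 6 were tested beside *Csf1r* and 2 rose, with a median of 0.23. These were *Csf2rb* (2.52, SE 0.38, adjusted p = 0.00805) and *Csf2rb2* (3.02, SE 0.47, adjusted p = 0.00696), beta chains of the receptors for IL-3 and related cytokines, whose sequences are so alike that the split of reads between them is uncertain. Without mutant 1, 3 of the 6 were called higher and the median was 0.37. *Csf1*, the ligand of CSF1R, did not pass the test, at 15.9 ± 2.69 CPM (SD, n = 4) in the mutant and 14.3 ± 1.74 CPM (SD, n = 4) in WT (log2 fold change 0.16, SE 0.14, adjusted p = 0.509). The other ligand gene, *Il34*, had 4 counts in all 8 samples together. The receptor thus rose while the values of its ligand *Csf1* overlapped.

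The partners of the ITAM adaptors gave no call by edgeR in 3 tested genes (1 at an unadjusted p under 0.05, 1 called by DESeq2 and 0 by limma-voom, and 1 called lower by edgeR without mutant 1 and with no filter), and 8 more were under the filter. *Syk*, the kinase that binds phosphorylated ITAMs, was at 30.7 ± 1.99 CPM (SD, n = 4) and 30.5 ± 1.81 CPM (SD, n = 4), and *Lyn*, a kinase that phosphorylates them, at 26.05 ± 3.47 and 28.4 ± 1.196 CPM (log2 fold changes 0.01 and −0.12, adjusted p = 0.962 and 0.487). Of 16 tested genes of leukocyte signalling and the cytoskeleton beside the members, 4 rose and 1 fell, with a median of 0.38 (0.19 without mutant 1). *Ncf4*, a subunit of the phagocyte oxidase, rose by 2.16 (SE 0.39, adjusted p = 0.0107), *Rac2*, a GTPase of blood cells, by 1.35 (SE 0.34, adjusted p = 0.0350) and *Lsp1*, an actin-binding protein, by 0.39 (SE 0.10, adjusted p = 0.0331). *Dock2*, outside the rule for naming genes and named because it was called, rose by 1.01 (SE 0.28, adjusted p = 0.0495), a call lost in 11 of 15 alternatives. *Arhgdib*, which endothelial cells also express, fell by 0.32 (SE 0.07, adjusted p = 0.0214). *Cyba* did not pass (0.02, SE 0.10). Calls were lost for *Rac2* in 5 of 15 alternatives and for *Lsp1* and *Arhgdib* in 6 of 16 each. The list's count of 4 higher ranged, on the scale of the whole library, from 1 (without mutant 3, WT 3 or WT 4) to 6 (by DESeq2, without mutant 2 and without hemoglobin and mitochondrial genes), with 5 without mutant 1 and 2 with the replicate block.

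None of the 8 tested genes of the macrophage surface and effector list passed edgeR's test, leaving the members aside, with 3 at an unadjusted p under 0.05 and 0 called by DESeq2 or limma-voom. Leaving out mutant 1 or mutant 2 gave 1 gene lower, and leaving out mutant 3 gave 1 higher. The most abundant were *Ctsb*, a lysosomal protease (log2 fold change 0.13, adjusted p = 0.258), and *Stab1*, a scavenger receptor that endothelial cells also express (0.26, adjusted p = 0.312). A further 11 were under the filter, and of these *Cd163* and *Timd4*, receptors of mature tissue macrophages, were at 0 in all 8 samples. *Aif1*, which encodes IBA1 and was named after its values were seen, had 3, 3, 2 and 1 counts in mutants 1 to 4 and 0 in WT. *Adgre1* had 8 counts in all. Other genes of the list, also named after their values were seen, were measured in every sample, such as *Lyz2* (10.1 to 14.9 CPM in the mutant and 12.4 to 18.3 CPM in WT), *Cd68* (0.848 to 2.24 and 0.860 to 1.62 CPM) and *C1qb* (0.647 to 0.989 and 0.203 to 0.657 CPM), as was *Mrc1*. The list thus ran from genes at 0 to genes present in every sample.

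**Figure D4:**
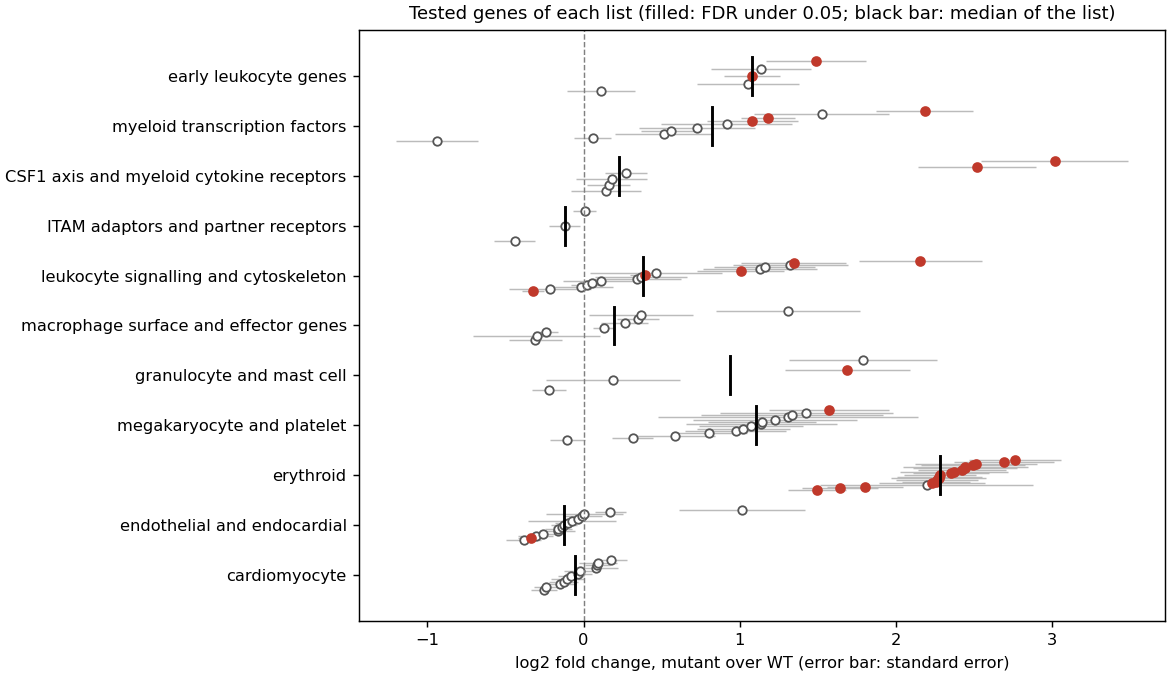
Log2 fold change of mutant over WT (horizontal axis, error bars of 1 standard error, libraries scaled by TMM) for the tested genes of each list (rows), with filled points for an adjusted p under 0.05 and a black bar at the median; members appear in the top row only. The medians of the megakaryocyte and erythroid lists are 1.11 and 2.28 (0.53 and 2.07 without mutant 1). The members' bar, at 1.08 (0.93 without mutant 1), includes *Spi1*, which passed the filter through its mutant samples, so it is not compared with these. Scaled to the erythroid list the same members have negative fold changes.

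Markers of other cells that the ventricle could hold moved with the members to different degrees, and their part in the members' result was not tested. Of 14 megakaryocyte and platelet genes, all tested, 1 rose (*Gp9*, 1.57, SE 0.38, adjusted p = 0.0325, a call lost in 8 of 16 alternatives), with a median of 1.11, and a median of 0.53 without mutant 1. DESeq2 called 5 of them and limma-voom 0. Its most abundant genes, *Rap1b* (−0.10, SE 0.11) and *Itgb3* (0.58, SE 0.26), did not pass, but *Rap1b* was called lower without mutant 1 (−0.24, adjusted p = 0.00548). Their summed level was 309 to 623 CPM in the mutant and 283 to 318 CPM in WT. Of 14 granulocyte and mast cell genes, 4 were tested and 1 rose, *Prtn3*, a protease of early granulocytes (1.69, SE 0.40, adjusted p = 0.0279, a call lost in 6 of 15 alternatives). *Prtn3* was not tested where 10 counts were required in every sample, and 1 of 3 genes was called higher there. *Mpo*, the peroxidase of myeloid precursors, named after its values were seen, did not pass (1.79, SE 0.47, adjusted p = 0.0515) but was called in 7 of 16 alternatives, and DESeq2 and limma-voom each called 2 of the 4 genes. *Gata2* (−0.22, SE 0.11) and *Kit* (0.19, SE 0.43), its most abundant genes, did not pass. *Elane* and 4 others of that list were at 0 in all samples, and its summed level was 37.0 to 64.3 CPM in the mutant and 35.1 to 42.2 CPM in WT. Of 12 lymphoid genes 1 was tested and did not pass (*Lck*, −0.18, SE 0.31), *Cd79b* had 14 counts in each genotype, 3 were at 0 in all samples, and the summed level was 1.07 to 2.10 CPM in the mutant and 1.01 to 1.97 CPM in WT. The summed erythroid level was 20572 to 70674 CPM in the mutant and 6994 to 8489 CPM in WT.

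The lists for cells of the ventricle itself had medians near 0. None of 12 cardiomyocyte genes was called by edgeR (median −0.06), with 2 at an unadjusted p under 0.05, 2 called by DESeq2 and 0 by limma-voom. Of 15 endothelial and endocardial genes 1 fell, *Tek*, the gene for TIE2 (−0.34, SE 0.08, adjusted p = 0.0279, a call lost in 7 of 16 alternatives), with a median of −0.12. The most abundant genes of these lists did not pass, with log2 fold changes of 0.09 (SE 0.12) for *Myh7*, 0.09 (SE 0.08) for *Actc1*, −0.14 (SE 0.06) for *Cdh5* and −0.12 (SE 0.08) for *Eng*. Without mutant 1, 2 cardiomyocyte genes were called higher and 2 lower, and 4 endothelial genes lower. *Actc1* was among those called higher in that fit (0.16, adjusted p = 0.0141). The summed endothelial level did not overlap, at 1062 to 1141 CPM in the mutant and 1197 to 1280 CPM in WT. That of the cardiomyocyte list did, at 34606 to 36700 CPM in the mutant and 36021 to 37985 CPM in WT.

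The genes whose log2 CPM followed the mean of the 5 tested members most closely over the 8 samples were *Ftl1* (Pearson's r 0.989), *Slc1a4* (0.989), *Snrnp25* (0.988), *Nt5c3* (0.988) and *Nop53* (0.987). All of them were higher in the mutant, by 0.36 to 0.98 on the log2 scale, and the 8 points share the difference between genotypes. After each genotype was centred on its mean, the closest genes were *Asb1* (0.994), *Pxk* (0.993), *Hdac5* (0.991), *Rad21* (0.988) and *Narf* (0.987), none of which was called between the genotypes. The median r of the erythroid list was 0.960 over the 8 samples and 0.836 after centring, and that of the megakaryocyte list 0.904 and 0.897. It was −0.525 and −0.0621 for the endothelial list and −0.615 and −0.777 for the cardiomyocyte list. These correlations are descriptions of 8 libraries in which mutant 1 lies far from the others.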

How the data were processed

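RNA was extracted from E9.5 ventricles, and poly A+ libraries from 200 ng of RNA were read in single reads of 60 bases. The authors deposited 1 table of expected counts per gene, made, per the labels' processing notes, with cutadapt and RSEM 1.3.1 on GRCm38. The aligner and the strand setting of the counting are not given in the sources used here. RSEM shares reads among genes, and 15.98% of all deposited expected counts, zeros included (39.9% of those above 0), were not exactly whole, so they were rounded to whole numbers. Symbols were found for 53274 of 53465 genes.

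Counts were tested with edgeR 4.0.16 in R 4.3.3 (TMM normalization, filterByExpr by genotype, robust quasi-likelihood test, Benjamini-Hochberg adjustment over all genes tested, threshold 0.05). Adjusted p-values are from this test unless another is named. Standard errors were derived from each gene's F statistic (log2 fold change over the root of F). Log2 CPM used a prior count of 2. Levels and errors rest on 11852372 to 14360323 counts per sample, and precision at low counts is limited by counting. Exon coordinates come from GENCODE M21.

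The members and the gene lists were chosen with earlier results of these data known. From each other list the text names up to 4 genes with the smallest adjusted p under 0.05 and the 2 most abundant, and the 5 genes most correlated with the members. Genes named outside this rule were chosen after their values were seen, and 1 list gene is counted but not reported here. The alternative settings were upper-quartile normalization, no filter, 10 counts in every sample, removal of hemoglobin and mitochondrial genes, DESeq2 1.42.0, voom in limma 3.58.1, a replicate block, each sample left out in turn, and, added later, no robust estimation. Every replicate pair differed beyond sampling noise (lowest ratio of chi-square to its degrees of freedom 3.77) and counts once. The main fit was tested on simulated counts with the same spread for all genes and no sample set apart as mutant 1 is here. Of 200 changed genes 95.5% were recovered, with 13 false calls among 14481 genes tested. This does not measure the error of the fit with such a sample.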

Additional observations from a re-analysis of the deposited data

Results flagged for a closer look

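In 41 groups of 4 samples, 1 per genotype for each member, list mean and summed level, the gap between an extreme sample and its neighbour was divided by the whole range and compared with Dixon's 95% critical value for 4 samples. Chance passes about 1 in 20 groups. In 7 groups the gap was larger, and in 5 of them the extreme sample was mutant 1. Mutant 1 was the highest mutant for *Laptm5* (gap ratio 0.866), for *Adgre1* (0.970), for the summed level of the 10 leukocyte genes (0.858) and for the mean of the megakaryocyte and platelet list (0.906). It was the lowest mutant for the mean of the ITAM adaptor and partner list (0.846), whose tested genes are *Sirpa*, *Syk* and *Lyn*. In mutant 1 *Sirpa* and *Lyn* were at 0.660 and 0.778 of the median of the other mutants and *Syk* at 1.14. WT 2 was the lowest WT sample for *Mrc1* (0.848) and the highest for the mean of the megakaryocyte and platelet list (0.860). The *Adgre1* ratio rests on 8 reads.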

How the results depend on the processing

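The median log2 fold change of the tested members stayed between 0.93 and 1.22 under the alternatives. It includes *Spi1*, which passed the filter through its mutant samples, except where 10 counts were required in every sample (1.06, 4 members). Of the erythroid genes 13 were called with the replicate block, 12 of 12 tested without hemoglobin genes, and 18 or 19 otherwise. Leaving out 1 sample moved the number of genes called from 1280 to between 507 and 2659, the members called from 2 to between 1 and 4, and the wider myeloid genes called higher from 9 to between 5 and 12. With a replicate block 636 genes were called (394 higher, 242 lower) and 2 members. Samples of the same replicate number showed no likeness beyond genotype (same-number correlations −0.0911 to 0.0187). Such correlations cannot tell whether these samples shared a litter or a batch. The other alternatives called 1131 to 1759 genes. Signs turned for *Syk* with upper-quartile normalization (−0.0097), for *Kit* with limma-voom (−0.055) and the replicate block (−0.011), and, with 1 sample left out, for *Zeb2* (−0.076 to 0.13), *Myh7* (−0.022 to 0.19), *Kit* (−0.38 to 0.42), *Syk* (−0.030 to 0.042) and *Cyba* (−0.021 to 0.11). The cause was not tested. Over 43 genes followed through the alternatives (the tested members, genes of the naming rule and *Nrg1*, *Runx1*, *Mpo* and *Pf4*), 600 of 681 comparisons kept direction and side of the threshold, 52 lost a call, 16 gained one (7 of these for *Mpo* and 3 each for *Runx1* and *Laptm5*) and 13 turned sign. CPM without TMM gave a summed ratio of 1.996. Counts under about 10 per sample limit *Ptprc*, *Fcer1g*, *Tyrobp*, *Cx3cr1* and *Adgre1*.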
